A study of Mus musculus with 8 samples.

Results

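The neuronal intermediate filaments of the dorsal root ganglion (DRG) are built from 5 proteins, encoded by Nefl, Nefm, Nefh, Ina and Prph, and the transcripts of these 5 genes, of 55414 genes listed, are described here. They were chosen by name, with earlier results of these data known, and all 5 symbols had a gene ID in each of the 8 count files. All 5 were among the 17721 genes that passed the filter on low counts and were tested. DRG of mouse embryos were sampled at E18.5, late in gestation. AD1 OE embryos (n = 4 libraries) had the genotype AdvillinCre/+;Rosa26Dach1/+, in which a Cre recombinase at the Advillin locus, active in sensory neurons, removes a stop cassette and starts expression of Dach1, linked to EGFP, from the Rosa26 locus. Control embryos (n = 4 libraries) had the genotype Advillin+/+;Rosa26Dach1/+, so both groups carried the Rosa26 allele and the groups differed in Cre as well as in Dach1. The Rosa26Dach1 line was kept on a mixed C57Bl/6J and CD1 background, and AD1 OE pups die around birth. The libraries were made from whole ganglia, which hold glia and other cells besides neurons. A lower level may thus mean fewer cells of a type or less RNA per cell, and the libraries cannot tell these apart. On stained E18.5 sections of this genotype, the study counted neurons with Islet1, Prdm12, TrkB or TrkC. It concluded that the main neuron subtypes formed in appropriate numbers. The study gives its replicates as embryos, while the labels do not say whether each library came from a single embryo, and the p-values measure the spread between these libraries.

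Intermediate filaments are the ropes of the axonal cytoskeleton. The neurofilament light chain (Nefl) forms the core of the filament, the medium (Nefm) and heavy (Nefh) chains add long side arms that space the filaments and are linked to axon calibre, and alpha-internexin (Ina) and peripherin (Prph) assemble with them. In sensory ganglia, high neurofilament content, above all of the heavy chain, marks the large myelinated neurons of touch and proprioception, and peripherin marks the small unmyelinated neurons, most of them nociceptors. The heavy chain is the last of the neurofilament chains to accumulate during development. The comparison of AD1 OE with Control asked whether these transcripts differ when Dach1 is expressed throughout the sensory neurons.

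Libraries held between 22339059 and 44025625 counts. Values are given as CPM, a gene's share of its library's counts after scaling by the TMM method of edgeR, and a gene was called when its Benjamini-Hochberg adjusted p in the edgeR quasi-likelihood test was under 0.005 and its absolute log2 fold change was over 0.25. Dach1 was examined to check the labels, and its mean level was 95.9 ± 5.28 CPM in AD1 OE against 32.6 ± 1.64 CPM in Control (SD, n = 4 per group, log2 fold change 1.56). Avil, whose locus carries Cre in AD1 OE, stood at 463.6 ± 12.03 against 891.8 ± 35.1 CPM (log2 fold change -0.94), and both genes were called. By Xist and Y-linked transcripts, 3 of 4 AD1 OE libraries and 1 of 4 Control libraries were male. Summed markers of all neurons spanned 3635 to 3711 CPM in AD1 OE and 3550 to 3821 CPM in Control (10 markers, 0 called). Summed glial markers spanned 1596 to 2009 CPM in AD1 OE and 1699 to 1992 CPM in Control (8 markers, 0 called). Summed fibroblast markers ran from 5777 to 6542 CPM in AD1 OE and from 4947 to 6065 CPM in Control (6 markers, 0 called, 1 at an adjusted p under 0.05). Skeletal muscle markers were highest in AD1 OE replicate 3, at 622 CPM against 121 to 397 CPM elsewhere, and erythroid markers in AD1 OE replicate 2, at 730.1 CPM against 204 to 366 CPM elsewhere, and the part of these cells in the filament values was not tested. Spinal cord markers summed to at most 26.4 CPM, in Control replicate 1, and 2 of the 10 had no count in some library. Sympathetic neuron markers, 7 genes, also summed highest in Control replicate 1, at 33.4 CPM, against 15.9 to 22.7 CPM in the other libraries.

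The filament genes were among the most abundant transcripts of the ganglion and differed little between the groups. None of the 5 was called (0 of 5, against 2.57% of all tested genes). Nefh and Ina were lower in AD1 OE, at 84.7% and 89.9% of the Control mean, with adjusted p-values under 0.05 but above the limit of a call. The remaining 3 genes, Nefl, Nefm and Prph, stood at 96.2%, 98.9% and 98.3% of Control, with overlapping groups. Under an adjusted p of 0.05 alone, 2 of 5 genes passed, both lower in AD1 OE, where 6.55% of all tested genes passed in either direction, 4.14% as lower and 2.42% as higher. The same 2 genes had groups that did not overlap, where 13.0% of all tested genes had such groups, 7.26% with AD1 OE lower and 5.69% with AD1 OE higher.

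**Figure D1:**
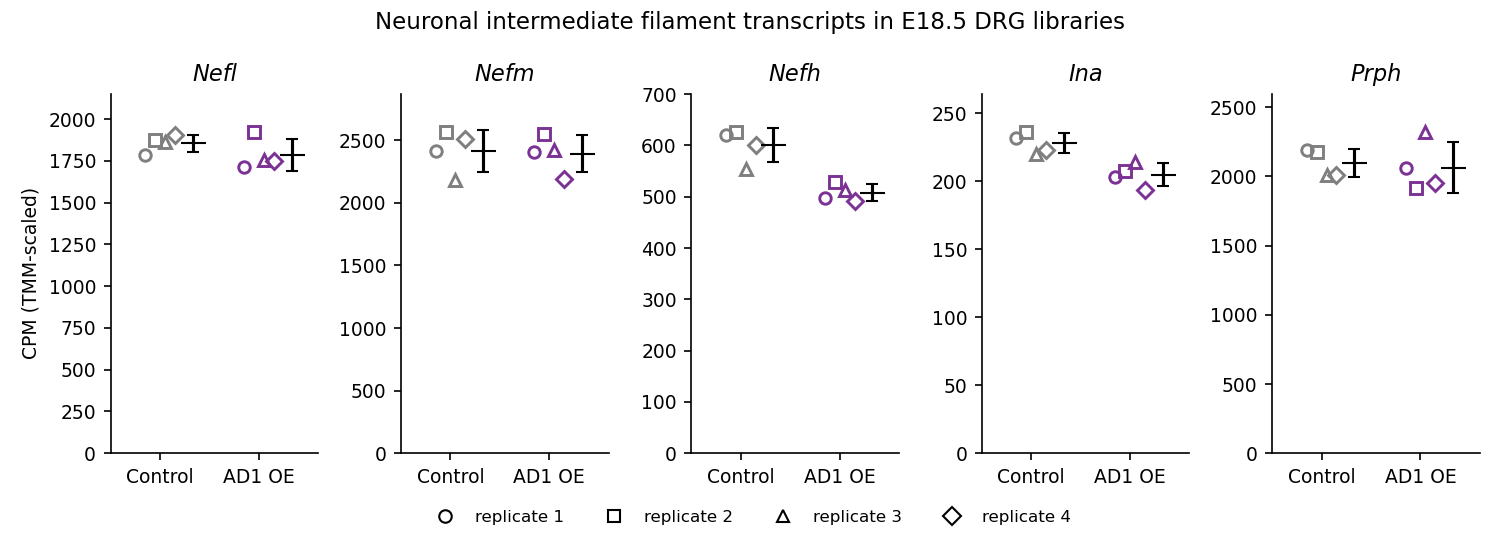
TMM-scaled CPM of the 5 genes in each library, with Control in grey and AD1 OE in purple. Marker shapes give the replicate number, which the main test did not use to pair libraries across groups. Horizontal ticks and bars give the mean and SD over 4 libraries, and every vertical axis starts at 0. The AD1 OE libraries of Nefh, at 491 to 529.6 CPM, and of Ina, at 194 to 214 CPM, all lie below the lowest Control library, at 553 and 220.3 CPM, while the groups of the other 3 genes overlap.

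Nefl (ENSMUSG00000022055, chromosome 14), the light chain that every neurofilament requires, was at 1711, 1922, 1754 and 1750 CPM in AD1 OE replicates 1 to 4 and at 1782, 1873, 1865 and 1902 CPM in Control replicates 1 to 4. AD1 OE replicate 2 was the highest of all 8 libraries and the other 3 AD1 OE libraries were the lowest, so the groups overlapped. The means were 1784 ± 94.0 and 1855 ± 51.5 CPM, and the log2 fold change of -0.06 (SE 0.05, 95% confidence interval -0.17 to 0.05) did not pass the test (edgeR quasi-likelihood test, adjusted p = 0.613). The interval reaches no further than the limit of a call of 0.25 on either side.

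Nefm (ENSMUSG00000022054, chromosome 14), the medium chain and the neighbour of Nefl, was at 2407, 2546, 2420 and 2193 CPM in AD1 OE and at 2414, 2565, 2184 and 2506 CPM in Control. The lowest libraries of both groups, AD1 OE replicate 4 and Control replicate 3, were nearly level, and so were the highest, replicate 2 in both. With means of 2391 ± 146.4 and 2417 ± 167.4 CPM, the log2 fold change was -0.02 (SE 0.06, 95% confidence interval -0.15 to 0.12, edgeR adjusted p = 0.933), and its sign turned in 3 of the 8 fits that left out 1 library. Nefl and Nefm share 1108 exon bases on opposite strands in the annotation. The libraries were stranded but the strand setting of the counting is not given in the sources used here, so the split of reads between these 2 genes is uncertain in that stretch.

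Nefh (ENSMUSG00000020396, chromosome 11) encodes the heavy chain, the marker of large myelinated neurons. Its tail is set apart from the other chains by repeats of lysine, serine and proline, known as the sites at which the tail is phosphorylated. In the GENCODE coding sequences, 3 codons in a row for lysine, serine and proline occurred 51 times among the 1090 codons of Nefh and 4 times among the 848 codons of Nefm. They did not occur in the coding sequences of Nefl, Ina or Prph. The densest stretch of 240 bases of the Nefh coding sequence (bases 1549 to 1788 counted from the first base of the start codon, in GENCODE M21 annotation of GRCm38) is shown because this chain has far more of these runs than any of the other 4, and capitals mark its 13 lysine-serine-proline codon runs.
Nefh: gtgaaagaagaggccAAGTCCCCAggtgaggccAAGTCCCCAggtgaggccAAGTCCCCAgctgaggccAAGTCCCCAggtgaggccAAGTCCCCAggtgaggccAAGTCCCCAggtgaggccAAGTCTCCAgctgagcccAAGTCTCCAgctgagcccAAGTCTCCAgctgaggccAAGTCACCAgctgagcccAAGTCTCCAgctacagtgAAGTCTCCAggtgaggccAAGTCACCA

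Nefh was at 498, 529.6, 513 and 491 CPM in AD1 OE replicates 1 to 4 and at 620.0, 626, 553 and 601 CPM in Control replicates 1 to 4. Every AD1 OE library lay below every Control library, with the narrowest gap between AD1 OE replicate 2 and Control replicate 3. The AD1 OE mean was 508 ± 17.1 CPM, the Control mean was 600.1 ± 32.9 CPM, and the log2 fold change was -0.24 (SE 0.05, 95% confidence interval -0.35 to -0.13, edgeR adjusted p = 0.0116). Nefh thus missed both limits of a call in the edgeR test, the fold change narrowly, and ranked 621 of 17721 genes by p. With DESeq2, the study's tool, its adjusted p of 1.23e-05 passed the limit on p, and its log2 fold change of -0.24 did not pass the other. The difference had the same direction within each sex. The female AD1 OE library, at 513 CPM, lay below the 3 female Control libraries, at 553 to 626 CPM, and the 3 male AD1 OE libraries, at 491 to 529.6 CPM, lay below the male Control library, at 601 CPM. The adjusted p was 0.0309 with sex as a term with 2 levels, and 0.0284 without Control replicate 1, the library with the highest spinal cord and sympathetic marker sums.

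Ina (ENSMUSG00000034336, chromosome 19), alpha-internexin, is the filament protein known to appear early in neurons that grow axons. It was at 203.5, 208, 214 and 194 CPM in AD1 OE and at 231.5, 236, 220.3 and 223 CPM in Control. The groups did not overlap, although the highest AD1 OE library, the female replicate 3, came close to Control replicate 3. The means were 204.8 ± 8.55 and 227.8 ± 7.34 CPM, with a log2 fold change of -0.15 (SE 0.04, 95% confidence interval -0.24 to -0.07, edgeR adjusted p = 0.0426). The direction was the same in both sexes, with 214 against 220.3 to 236 CPM in females and 194 to 208 against 223 CPM in males. The adjusted p was 0.194 with sex as a term with 2 levels, and it was over 0.05 in 7 of the 8 fits that left out 1 library. Ina shares 456 exon bases with Nt5c2 on the opposite strand, and Nt5c2 itself, looked up after the values were seen, was at 66.3 ± 1.77 against 65.8 ± 2.09 CPM in Control (log2 fold change 0.01, edgeR adjusted p = 0.927).

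Prph (ENSMUSG00000023484, chromosome 15), peripherin, was at 2061, 1917, 2320 and 1951 CPM in AD1 OE and at 2192, 2177, 2011 and 2011 CPM in Control. It had the widest spread of the 5 genes within AD1 OE, a coefficient of variation of 8.85%, because the female replicate 3 stood above all other libraries. The means of 2062 ± 182.5 and 2098 ± 100.3 CPM gave a log2 fold change of -0.02 (SE 0.07, 95% confidence interval -0.17 to 0.12, edgeR adjusted p = 0.89). Its sign turned with sex in the fit: with a term of 2 levels the log2 fold change was 0.05 (adjusted p = 0.78). In females the AD1 OE library, at 2320 CPM, was above the Control libraries, at 2011 to 2192 CPM, and in males the range of AD1 OE, 1917 to 2061 CPM, held the Control library at 2011 CPM.

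**Figure D2:**
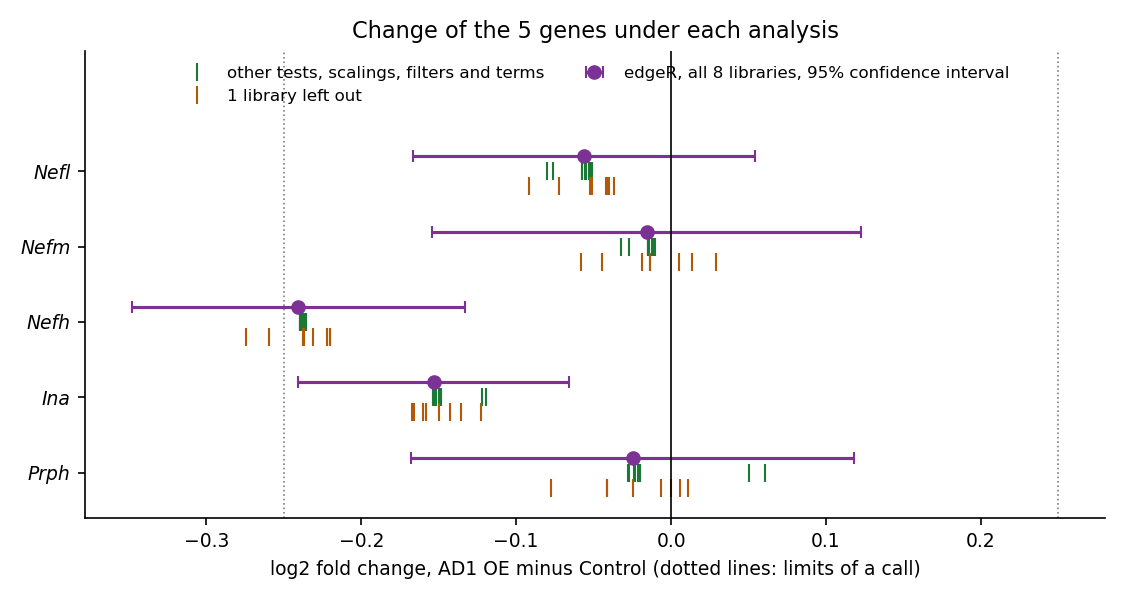
Log2 fold change of AD1 OE against Control on the horizontal axis for each of the 5 genes. Purple points and bars give the edgeR estimate over all 8 libraries with its 95% confidence interval, green ticks give the estimates with other tests, scalings, filters and terms, and orange ticks give those with 1 library left out. Dotted lines mark the absolute log2 fold change of 0.25 that a call required. Estimates of Nefh lie between -0.27 and -0.22 and those of Ina between -0.17 and -0.12, all below 0, while those of Nefm and Prph fall on both sides of 0.

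The promoters of Ina and Prph are printed because the Ina transcript differed at an adjusted p under 0.05 and the Prph transcript did not, and because the RefSeq promoter table used here held 2 of the 5 genes. Each run is the 250 bases before the transcription start in GRCm38.p6, both on the plus strand, Ina at chr19:47014431-47014680 and Prph at chr15:99054924-99055173. Capitals mark the letters TATAAA of the TATA box, searched on both strands. They also mark the GC box, GGGCGG, in its minus-strand form.
Ina: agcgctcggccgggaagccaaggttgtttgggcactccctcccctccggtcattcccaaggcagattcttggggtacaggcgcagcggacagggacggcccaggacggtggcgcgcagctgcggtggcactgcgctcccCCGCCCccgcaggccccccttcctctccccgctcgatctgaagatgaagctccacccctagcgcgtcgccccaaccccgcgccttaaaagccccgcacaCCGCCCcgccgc
Prph: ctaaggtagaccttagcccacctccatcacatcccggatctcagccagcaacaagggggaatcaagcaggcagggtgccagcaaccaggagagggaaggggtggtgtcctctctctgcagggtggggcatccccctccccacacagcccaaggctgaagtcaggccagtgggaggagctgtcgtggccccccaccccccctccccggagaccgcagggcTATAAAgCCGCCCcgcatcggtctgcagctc

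The Prph window held 1 TATAAA, 31 bases before the start, which 12.4% of the 32851 promoters of the same length also held, and 1 GC box. The Ina window held no TATAAA and 2 GC boxes, and 32.7% of all promoters held at least 1 GC box. Both strands were searched for each motif, and no match overlapped another. CCAAT was in neither window (33.8% of all promoters), and CANNTG, the E-box, was in the Ina window 1 time and not in the Prph window (66.2% of all promoters). The windows had a GC content of 70.8% for Ina and 65.2% for Prph. No binding was measured, and these matches describe the letters of the windows only.

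Levels of different genes were compared per length of merged exons. Prph was the most abundant of the 5 per kilobase, at 1049 ± 50.2 CPM per kilobase in Control and 1032 ± 91.3 in AD1 OE. Nefl followed with 548.9 ± 15.2 in Control and 527.9 ± 27.8 in AD1 OE, and Nefm with 418 ± 28.9 and 414 ± 25.3. The heavy chain and alpha-internexin were far lower: Nefh was at 150.3 ± 8.24 CPM per kilobase in Control and 127 ± 4.28 in AD1 OE, and Ina at 70.3 ± 2.27 and 63.2 ± 2.64. In Control, Prph made up 46.9% of the sum over the 5 genes on this scale, Nefl 24.5%, Nefm 18.7%, Nefh 6.72% and Ina 3.14%. The order was the same in both groups, and neighbours in it did not overlap within a group. Only the places of Nefl and Nefm depended on the length used: the annotation gives Nefm a longest transcript of 3680 bases but merged exons of 5782 bases, and with the longest transcript Nefm was at 656.9 ± 45.5 CPM per kilobase in Control, above Nefl at 548.9.

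**Figure D3:**
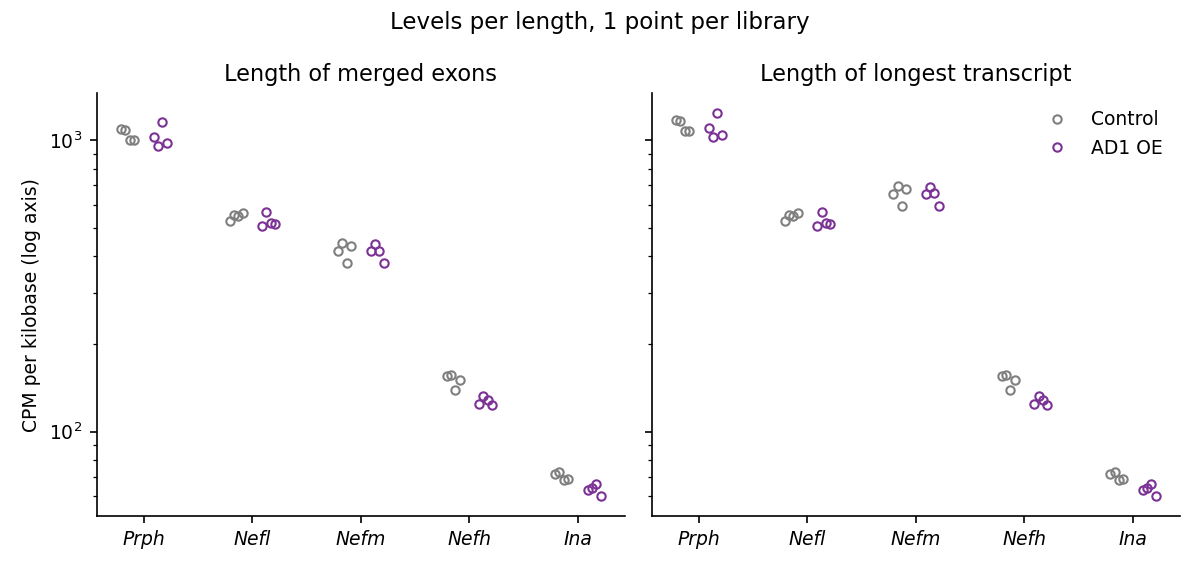
CPM per kilobase on a log axis, with 1 point per library, Control in grey and AD1 OE in purple. The left panel uses the length of merged exons and the right panel the longest annotated transcript. Prph leads and Ina is lowest in both panels, while Nefm moves from below Nefl on the left (418 against 548.9 in Control) to above it on the right (656.9).

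The 5 genes together took 0.658% to 0.722% of scaled counts in AD1 OE libraries and 0.683% to 0.748% in Control libraries. By mean CPM in Control, Nefm ranked 13 of 17721 tested genes, Prph 17, Nefl 21, Nefh 141 and Ina 739. The lowest count behind any of the values was 4663, for Ina in AD1 OE replicate 2, where counting error alone gives a coefficient of variation of 1.46%. The spread between libraries of a group was wider than that for each gene, from 2.77% for Nefl in Control to 8.85% for Prph in AD1 OE.

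Ratios between the filament transcripts within a library do not depend on how libraries are scaled, and Prph, the filament of small neurons, served as the reference. The log2 ratio of Nefh counts to Prph counts was -2.05, -1.86, -2.18 and -1.99 in AD1 OE and -1.82, -1.80, -1.86 and -1.74 in Control. AD1 OE replicate 2, the library with the lowest Prph, overlapped Control replicate 3, and the other 3 AD1 OE libraries were below all Control libraries. The means were -2.02 ± 0.13 and -1.81 ± 0.05, a difference of -0.21 (exact permutation test over 70 divisions, two-sided, p = 0.0571, Benjamini-Hochberg adjusted over the 4 ratios 0.1142), and the smallest p that 4 against 4 libraries allow is 0.0286. The ratio of Ina to Prph was -3.33 ± 0.09 in AD1 OE and -3.20 ± 0.03 in Control, a difference of -0.13 (exact permutation test, p = 0.0571, adjusted 0.1142). Nefl to Prph differed by -0.03 (exact p = 0.7714, adjusted 0.8571) and Nefm to Prph by 0.01 (exact p = 0.8571, adjusted 0.8571). The groups overlapped in all 4 ratios to Prph, and a single ratio separated alone could not have reached 0.05 after adjustment.

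With Nefl as the reference, a choice made after the data were seen, the ratio of heavy to light chain was lower in every AD1 OE library than in any Control library. The log2 ratio of Nefh to Nefl was -1.78, -1.86, -1.77 and -1.83 in AD1 OE and -1.52, -1.58, -1.75 and -1.66 in Control, so that the groups did not overlap. The means were -1.81 ± 0.04 and -1.63 ± 0.10, a difference of -0.18 (exact permutation test, two-sided, p = 0.0286, the smallest possible, and 0.0858 after adjustment over the 3 ratios to Nefl, the least that 1 ratio separated alone can reach). Ina to Nefl differed by -0.10 (exact p = 0.1714, adjusted 0.2571) and Nefm to Nefl by 0.04 (exact p = 0.5429, adjusted 0.5429). With Tubb3, the neuronal beta-tubulin, as the reference, Nefh differed by -0.12 (exact p = 0.2857, adjusted 0.6857), and the groups overlapped.

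**Figure D4:**
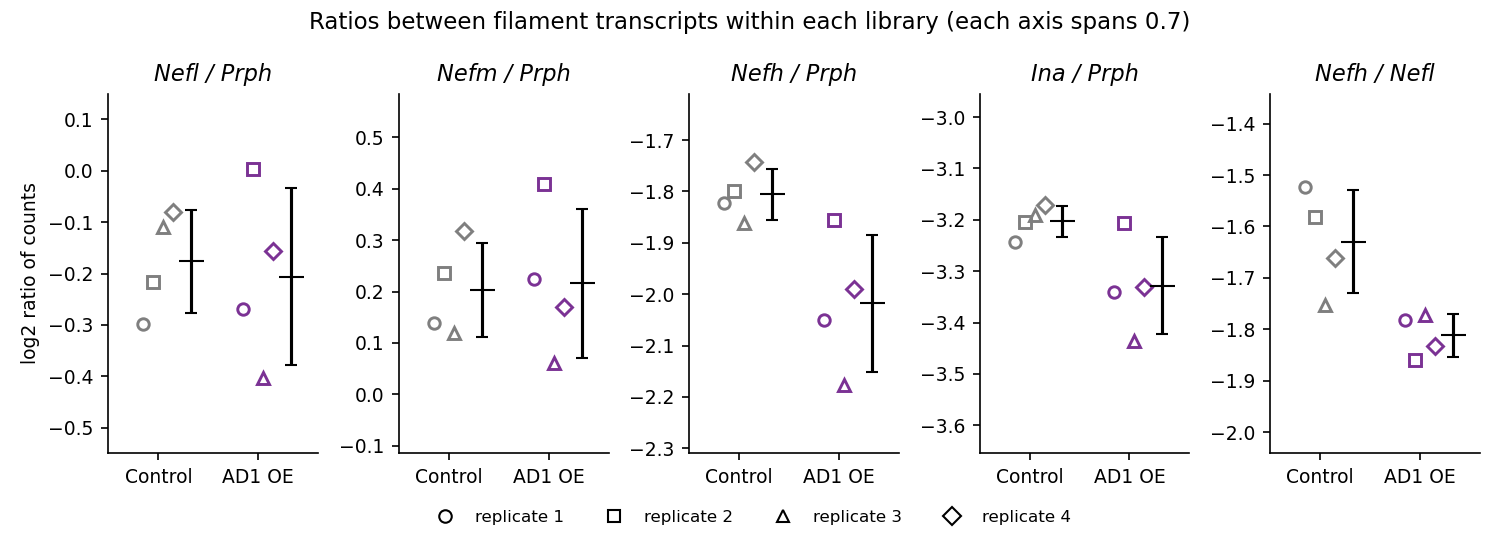
Log2 ratio of counts within each library on the vertical axis for 4 genes against Prph and for Nefh against Nefl, with each axis spanning 0.7. Control is grey, AD1 OE is purple, shapes give the replicate number, and ticks and bars give the mean and SD over 4 libraries. Groups overlap in the 4 ratios to Prph and not in Nefh to Nefl, where AD1 OE spans -1.86 to -1.77 and Control -1.75 to -1.52.

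Genes that work with these filaments, or mark the neurons that differ in filament content, were described from 8 lists of 89 genes in all, of which 88 were tested. Among the 88, 6 genes passed as lower in AD1 OE and 3 as higher, against 1.78% and 0.784% of all tested genes. None was called in the 5 lists on the cytoskeleton itself: 12 other intermediate filaments, 9 linkers, chaperones and turnover factors, 12 kinases and phosphatases, 10 axonal motors and 13 microtubule genes. The median log2 fold change was -0.06 over the 5 filament genes, between -0.07 and -0.0028 in these 5 lists, and 0.0018 over all tested genes.

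In the other intermediate filaments, Vim, the vimentin of glia, fibroblasts and immature cells, was at 1375 ± 37.2 CPM in AD1 OE against 1458 ± 87.6 CPM (log2 fold change -0.08, edgeR adjusted p = 0.435). Krt19, an epithelial keratin, was at 7.15 ± 0.60 against 14.4 ± 5.16 CPM with groups that did not overlap (log2 fold change -1.01, adjusted p = 0.0128). Krt8, another keratin, was also lower (-2.78, adjusted p = 0.0233) but ran from 0.27 to 7.55 CPM within Control. Synm went the other way, at 327 ± 8.51 against 286 ± 17.6 CPM without overlap (0.19, adjusted p = 0.0331). Krt8 and Synm were named after their values were seen. Among the linkers and turnover factors, Dst, the dystonin that ties filaments to other parts of the cytoskeleton, was at 1056 ± 46.2 against 1028 ± 45.7 CPM (log2 fold change 0.04, adjusted p = 0.749).

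Of the kinases and phosphatases, Cdk5, a proline-directed kinase of the neurofilament tails, was at 100.6 ± 4.67 CPM in AD1 OE against 111.9 ± 2.83 CPM, with groups that did not overlap (log2 fold change -0.15, edgeR adjusted p = 0.0391, not called). The most abundant of that list, Ppp2r1a, the scaffold subunit of protein phosphatase 2A, had a log2 fold change of -0.09 (adjusted p = 0.269). Among the motors that move filaments along the axon, Kif5a, a kinesin heavy chain, was at 1629 ± 60.8 against 1609 ± 56.6 CPM (log2 fold change 0.02, adjusted p = 0.895), and Dctn1, of the dynactin complex, had the smallest p (log2 fold change -0.13, adjusted p = 0.167). For the microtubule list these were Map1b, a microtubule-associated protein of growing axons (0.04, adjusted p = 0.761), and Tubb2a, a beta-tubulin (-0.11, adjusted p = 0.186).

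**Figure D5:**
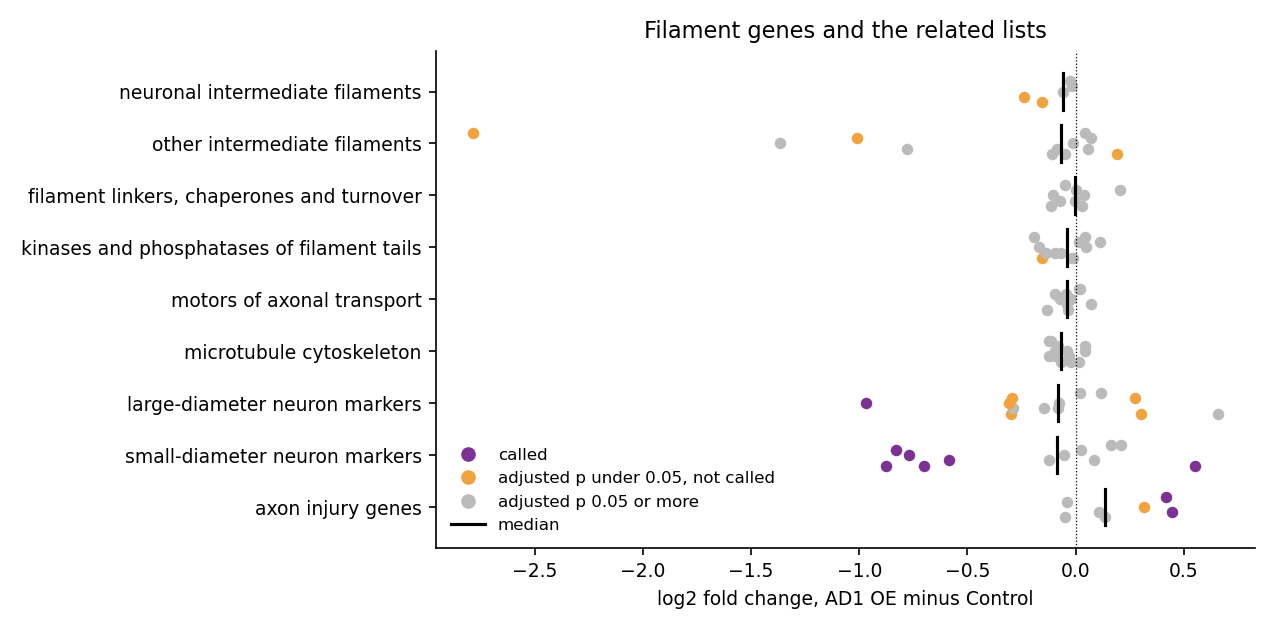
Log2 fold change of AD1 OE against Control on the horizontal axis for the 5 filament genes (top row) and the genes of the 8 related lists. Each point is 1 gene, purple if called, orange if its adjusted p was under 0.05 without a call and grey otherwise, and black bars give medians. The 5 cytoskeletal lists below the top row hold no purple points, whereas the small-diameter list holds 6 and the large-diameter list 1.

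The called genes were in the lists of neuron markers and injury genes. Among 13 markers of large-diameter neurons, 1 was called, Etv1, a transcription factor of proprioceptive neurons, which fell to 92.6 ± 9.20 CPM in AD1 OE, against 180.9 ± 14.1 CPM (log2 fold change -0.97). Whrn, a scaffold protein, had the smallest p of the uncalled markers (log2 fold change -0.31, edgeR adjusted p = 0.00557). With DESeq2, Whrn passed both limits of a call (-0.31, adjusted p = 0.000122). Ntrk3, the neurotrophin receptor TrkC of proprioceptors and the most abundant of the list, went the other way. It was at 343 ± 31.0 against 278 ± 16.9 CPM with groups that did not overlap (log2 fold change 0.30, edgeR adjusted p = 0.0171, not called). With DESeq2, Ntrk3 passed both limits of a call (0.30, adjusted p = 0.000205). With sex as a term with 2 levels in edgeR, its adjusted p was 0.0815. At an adjusted p under 0.05 alone, 4 of the 13 were lower and 2 were higher, against 4.14% and 2.42% of all tested genes. The lower ones were Etv1, Whrn, Cntnap2 (-0.30, adjusted p = 0.00795) and the sodium channel gene Scn1a (-0.29, adjusted p = 0.0341). The higher ones were Ntrk3 and the potassium channel gene Kcna1 (0.27, adjusted p = 0.0291). Cntnap2, Scn1a and Kcna1 were named after their values were seen. Summed over the 13 markers, the groups overlapped, with 1338 to 1471 CPM in AD1 OE and 1335 to 1512 CPM in Control. This sum adds markers that fell to markers that rose. It also holds Spp1, which alone ran from 13.0 to 121.7 CPM in AD1 OE and from 15.2 to 82.2 CPM in Control. Its overlap therefore does not show that the single markers were unchanged. The part of large neurons in the Nefh result was not tested.

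Among 12 markers of small-diameter neurons, 5 fell and 1 rose. Scn10a, the nociceptor sodium channel Nav1.8 and the most abundant of the list, fell by 0.83 on the log2 scale, Tac1, the precursor of substance P, by 0.88, Mrgprd, a receptor of non-peptidergic nociceptors, by 0.77, Calca, the precursor of CGRP, by 0.70 and Gfra2, a neurturin receptor, by 0.58. Plxnc1, a semaphorin receptor, rose by 0.55 (all called). P2rx3, a purinergic channel, had the smallest p of those not called (0.16, edgeR adjusted p = 0.0642). The study itself singled out Scn10a, Calca and Mrgprd in these libraries, so the count is not independent evidence of the list's direction. The summed list spanned 3300 to 3529 CPM in AD1 OE and 3902 to 4301 CPM in Control without overlap. Scn10a alone carried most of that gap. Without it, an alternative added after the data were seen, the sum of the other 11 markers overlapped between the groups. It spanned 2550 to 2671 CPM in AD1 OE and 2619 to 2824 CPM in Control. This sum, too, adds markers that fell to markers that rose. Of the 12 markers, 5 were lower and 3 higher in AD1 OE without overlap, against 7.26% and 5.69% of all tested genes. The overlap of the sum therefore does not show that the single markers were unchanged.

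Among 8 genes of the response to axon injury, in which neurofilament transcripts are known to fall, 7 were tested. Of these, 2 were called higher, against 0.784% of all tested genes. They were Gal, the neuropeptide galanin (log2 fold change 0.42), and Sox11, a transcription factor of axon growth (0.45). Flrt3, a membrane protein of regrowing axons, had the smallest p of the others (0.32, edgeR adjusted p = 0.0184). With DESeq2, Flrt3 passed both limits of a call (0.32, adjusted p = 0.000924). Atf3 (0.14, adjusted p = 0.724), Jun (-0.05, 0.756), Gadd45a (-0.04, 0.891) and Csf1 (0.11, 0.408), named after their values were seen, were not called. Sprr1a did not pass the filter on low counts. The part of an injury response in the filament values was not tested. The median log2 fold change of the 7 was 0.14. Gal was no longer called without AD1 OE replicate 1 (adjusted p = 0.0051).

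The genes whose log2 CPM followed each filament gene most closely over the 8 libraries were searched among the 11000 genes whose mean reached 10 CPM. For Nefh these were Zadh2 (Pearson r = 0.99), Arpc4 (0.98) and Fkbp1a (0.98), and for Ina they were Ndel1 (0.98), Nptxr (0.98) and Vat1 (0.97). Since both filament genes differed between the groups, the group difference is part of these correlations, as in Zadh2 at 45.5 against 53.7 CPM and Nptxr at 176.8 against 205.6 CPM. Ndel1, known as a binding partner of dynein, was at 101.9 against 107.5 CPM. Prph was followed most closely by Lmnb2 (0.98), a lamin and thus itself an intermediate filament, Rnft2 (0.98) and Tbc1d9b (0.97). For Nefl the closest were Dlgap1 (0.96), Arl1 (0.95) and Insig2 (0.95), and for Nefm they were Rnf149 (0.92), Agpat3 (0.92) and Rbm12 (0.91). Among so many genes the highest values over 8 libraries are high in any case, and no 2 filament genes shared a name in these lists.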

How the data were processed

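DRG RNA of 8 libraries was sequenced from poly(A)-selected, stranded libraries. The authors deposited raw counts per Ensembl gene, 1 file per library, neither filtered nor normalized. The submitters' processing notes name bcl2fastq 2.20.0.422, STAR 2.7.8a, featureCounts 2.0.1 and GRCm39, and the strand setting of the counting is not given in the sources used here. Groups came from the genotypes in the labels. The files held 0 lines that name no gene. GENCODE M21 on GRCm38, another build, gave names (52133 IDs matched), chromosomes, lengths and coding sequences only.

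The analysis used edgeR 4.0.16 under R 4.3.3: filterByExpr, TMM scaling (factors 0.987 to 1.008), and the quasi-likelihood F test of AD1 OE against Control with no further term, adjusted by Benjamini-Hochberg over 17721 genes. The thresholds of a call were those the study used. The SE is the absolute log2 fold change divided by the square root of F. The common biological coefficient of variation was 8.22%. Alternatives were DESeq2 1.42.0 (the study's tool), limma-voom (limma 3.58.1), other scalings and filters, a sex covariate, the replicate number as a block and leaving out each library. The 2-level sex term and Nefl as reference were added after the data were seen. Sex was read from Xist and Y-linked genes.

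The members and lists were chosen with earlier results of these data known. Named were the 5 filament genes, Dach1, Avil, every called list gene, the most abundant and the uncalled smallest-p gene of each list, and the 3 genes closest in Pearson r to each filament gene, and any other gene was chosen after its values were seen. For 1 gene of the lists, counted in them, single values are not reported here. Likeness used log2 CPM (prior count 2). Replicates of a group differed by more than counting noise (chi-square per degree of freedom 4.34 to 12.2), and each was counted once. Counts carried no molecular identifiers, so counting error is a lower limit. The tests were checked on simulated counts.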

Additional observations from a re-analysis of the deposited data

How the results depend on the processing

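Of the 5 filament genes, 0 were called in 17 of 18 alternatives and 2 (Nefh and Ina) with an adjusted p of 0.05 alone. Nefh kept its direction and an adjusted p between 1.23e-05 (DESeq2) and 0.0476 (without AD1 OE replicate 1). Ina kept its direction, with an adjusted p between 0.00757 (DESeq2) and 0.244 (sex score). Prph turned to 0.0603 with the sex score and 0.0501 with the 2-level sex term, and without single libraries ranged from -0.0778 to 0.0106. Nefm ranged from -0.0582 to 0.0287 without single libraries. The ratio of Nefm to Prph ranged from -0.052 to 0.0641 and that of Nefl from -0.0999 to 0.0359 without single libraries, and with Tubb3 as reference Nefl gave 0.0668. Per kilobase of the longest transcript, Nefm was at 656.9 and Prph at 1126 in Control. Calls in the related lists rose from 9 to 15 with DESeq2, to 19 without an expression filter and to 19 with an adjusted p of 0.05 alone. Over all genes, 455 calls became 747 without a filter, 1161 with an adjusted p of 0.05 alone, and 289 to 420 without single libraries, lowest without AD1 OE replicate 1. The deviations of same-numbered libraries from their group means correlated at -0.0099, -0.0541, -0.035 and 0.3128. The last, of replicate 4, was the highest between any AD1 OE and Control library, and both of these libraries were male. The lowest, -0.3194, was between the female AD1 OE replicate 3 and the male Control replicate 4. A shared origin of some libraries cannot be told apart from sex here and was not tested. With the replicate block 0 filament genes and 348 genes in all were called, Nefh at an adjusted p of 0.0267 and Ina at 0.0901. The causes were not tested. With 4 libraries per group, the confidence intervals of Nefl, Nefm and Prph do not exclude differences up to their bounds.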
